A study of Mus musculus with 8 samples.

Results

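Transcripts of blood vessels were followed in the caput epididymis of mice that lack Nell2, through 38 genes of 24059 in the deposited table: 31 markers, receptors and regulators of endothelial cells and 7 ligands of the VEGF and angiopoietin families. The genes were taken by symbol from a list of names, with no threshold on their values, although the list itself was drawn up with earlier results of these data known. A compound entry of the list was read as Cd34. The study held 8 libraries, 4 from Nell2-KO mice (genotype Nell2-/-) and 4 from wild-type (WT) mice, all C57BL/6N and 14 weeks old, each made from whole caput, the head of the epididymis, where maturation of sperm begins. The labels do not describe the construction of the Nell2 allele and do not say that the replicates of a genotype came from separate animals, so the tests speak of the spread among these samples, which may be technical. Reads of 36 bases were counted per gene, with totals of 801112 to 6256204 in Nell2-KO and 2073811 to 2517387 in WT. Nell2 itself had 0 reads in every library of both genotypes and did not check the labels.

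Endothelial cells line blood and lymph vessels and are held together by junction proteins such as VE-cadherin and PECAM-1. Vascular endothelial growth factors are secreted ligands that act on the receptor tyrosine kinases encoded by Flt1, Kdr and Flt4, with neuropilins as co-receptors, and angiopoietins act on the receptor encoded by Tek. In rodents the caput begins with the initial segment, which is known for a dense network of capillaries beneath its epithelium. All 38 genes had reads in both genotypes, so the tissue carried endothelial transcripts, at low level. By the authors' RPKM, a level per gene length, WT means ran between 0.215 for Angpt2 and 39.3 for Cd34, and 12 of the 38 genes were below 1.

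Of the 9 genes that fell in Nell2-KO, 6 have a promoter in RefSeq's sequence table for GRCm38.p6, the assembly also called mm10, as have 20 of the 38 genes in all. The 250 bases before the annotated start are shown for the 2 VEGF receptors that fell and for 2 surface markers that fell, on the strand of the gene and from 5′ to 3′. ETS factors, a family that includes the endothelial regulators Erg and Fli1, bind around a GGAA core, and capitals mark CCGGAA or AGGAAG on either strand. The Kdr promoter lies at chr5:75978456-75978705 (minus strand), that of Flt1 at chr5:147726012-147726261 (minus strand), that of Cd34 at chr1:194938571-194938820 (plus strand) and that of Emcn at chr3:137340828-137341077 (plus strand).
Kdr: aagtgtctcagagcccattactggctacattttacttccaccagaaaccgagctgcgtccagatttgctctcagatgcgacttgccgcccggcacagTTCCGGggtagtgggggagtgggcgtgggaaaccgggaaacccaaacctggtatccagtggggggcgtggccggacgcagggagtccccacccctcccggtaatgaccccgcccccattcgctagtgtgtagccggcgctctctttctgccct
Flt1: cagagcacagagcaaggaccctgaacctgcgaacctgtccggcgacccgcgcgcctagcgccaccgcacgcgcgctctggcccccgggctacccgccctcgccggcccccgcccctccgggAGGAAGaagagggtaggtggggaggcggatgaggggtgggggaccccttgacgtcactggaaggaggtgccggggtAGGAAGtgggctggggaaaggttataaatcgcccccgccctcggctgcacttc
Cd34: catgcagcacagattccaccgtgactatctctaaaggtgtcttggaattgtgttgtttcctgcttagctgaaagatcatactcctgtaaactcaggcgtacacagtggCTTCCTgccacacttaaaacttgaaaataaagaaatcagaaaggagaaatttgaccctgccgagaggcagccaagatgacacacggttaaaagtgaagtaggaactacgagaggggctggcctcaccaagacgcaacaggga
Emcn: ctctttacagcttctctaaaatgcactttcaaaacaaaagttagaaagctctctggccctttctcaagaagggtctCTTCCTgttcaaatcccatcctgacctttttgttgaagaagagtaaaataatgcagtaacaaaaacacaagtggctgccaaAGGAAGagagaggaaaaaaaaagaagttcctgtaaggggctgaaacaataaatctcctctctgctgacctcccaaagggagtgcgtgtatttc
The Kdr stretch held 1 CCGGAA match, 153 bases before the start on the opposite strand, and no AGGAAG. Flt1 held AGGAAG at 129 and 53 bases before the start, Emcn at 174 and 93, and Cd34 at 142. Of the 6 genes that fell and have a promoter in the table, 5 held either string (the exception is Clec14a). So did 4 of the 9 tested genes without a call that have a promoter there. Either string was found in 38.2% of all 32851 promoters of the same length. That share is per promoter, while a gene was counted when any of its promoters held a string. CCGGAA alone was found in 3952 of all promoters and AGGAAG in 29.5% of them. ACGTG, the core of the element bound by hypoxia-inducible factors, was found in 2 of the 26 promoters of the 38 genes (1 of Clec14a and 1 of Vegfa) and in 16.6% of all. GC content differed among the genes that fell, at 40.8% for Emcn, 46.4% for Cd34, 61.6% for Kdr and 70.4% for Flt1, with a median of 52.4% over all promoters. A match describes the letters and does not show binding.

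Of 22 endothelial markers, receptors and regulators tested, 9 were lower in Nell2-KO caput and 0 higher by edgeR, and of 4 ligand genes tested 1 was higher. Of the 26 genes with enough reads to test, 9 fell and 1 rose, and the other 16 did not pass: Plvap, Kdr, Cd34, Clec14a, Emcn, Eng, Pecam1, Flt1 and Ptprb fell and the ligand gene Pgf rose. A call is an adjusted p under 0.05 in a quasi-likelihood test with edgeR, with Benjamini-Hochberg adjustment over all 11062 genes tested. By the same rule 15.0% of all genes were called, with 8.71% lower and 6.24% higher. An unadjusted p under 0.05 was reached by 2964 of the 11062 genes. The median log2 fold change (Nell2-KO over WT) was -0.58 over the 26 genes and 0.03 over all genes tested. A gene enters the test when 4 libraries reach a minimum level, so a gene that is high in 1 genotype only can enter through that genotype. Genes that entered mainly through WT include Plvap and Clec14a, and Esm1, Hey2 and Egln3 of the other lists. In bulk tissue, fewer endothelial cells and less of their RNA per cell cannot be told apart. Levels below are TMM-scaled CPM per library, in the order of replicates 1 to 4, and do not account for gene length.

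**Figure D1:**
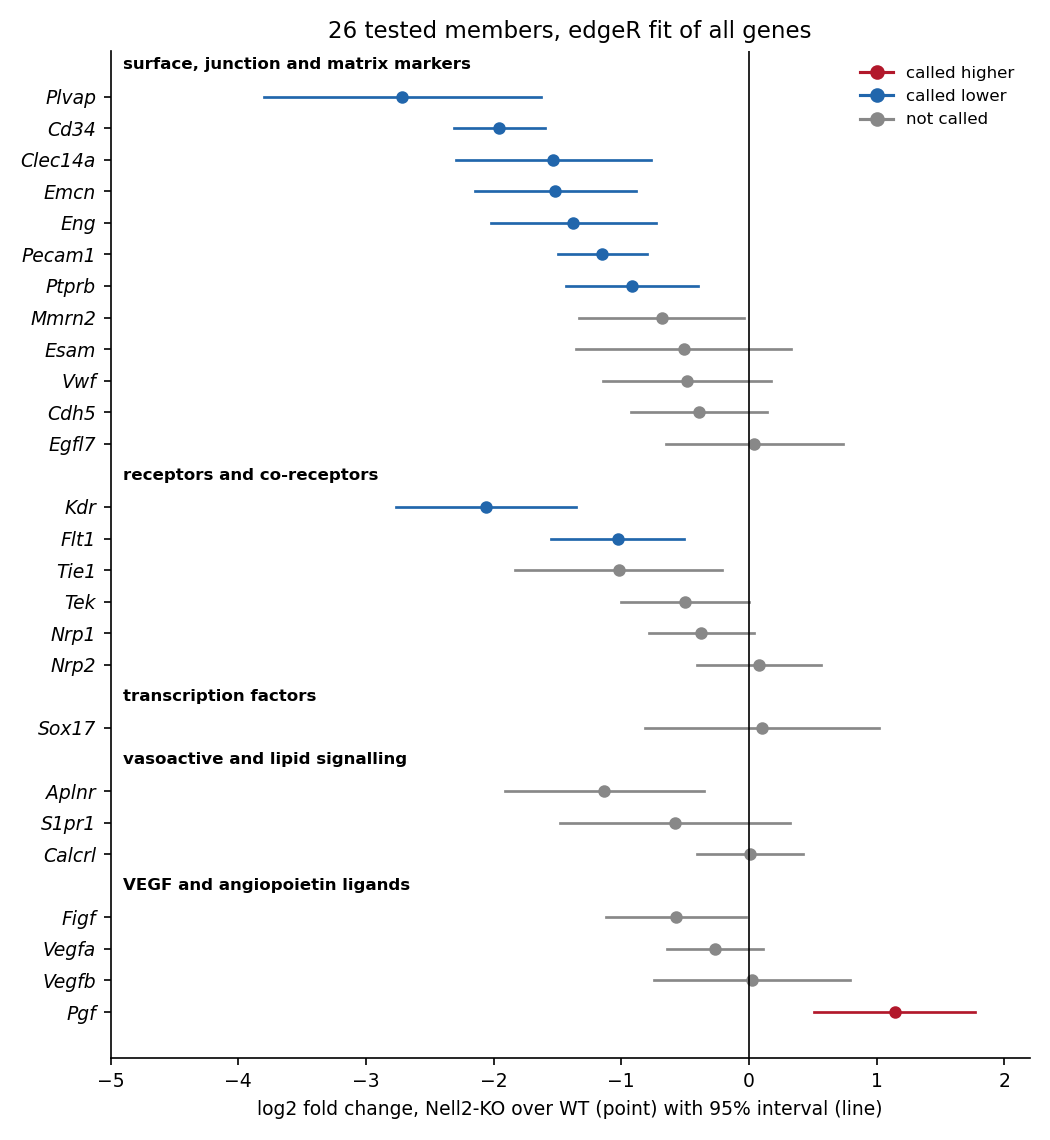
Log2 fold changes of the 26 tested genes (x axis, Nell2-KO over WT) with 95% intervals, grouped by role on the y axis, blue for genes called lower, red for the gene called higher and grey for genes not called. All 9 lower calls lie among surface markers and receptors, from -2.71 for Plvap to -0.92 for Ptprb, and Pgf is the gene called higher, at 1.14.

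Among surface and junction markers, 7 of the 12 tested fell and 0 rose by edgeR (0 also at an unadjusted p under 0.05, and 0 by DESeq2). Cd34, which encodes a sialomucin of capillary endothelium that stromal and progenitor cells also carry, was at 52.1, 48.7, 41.7 and 34.9 CPM in Nell2-KO, against 179, 176, 178 and 136 CPM in WT. The lowest WT library was above the highest Nell2-KO library by more than the whole range within either genotype. Its log2 fold change was -1.95 ± 0.16 (SE; edgeR adjusted p = 5.6e-06), a 3.88-fold lower level. Pecam1, which encodes the junctional adhesion molecule PECAM-1, was at 12.7, 12.4, 12.8 and 10.8 CPM in Nell2-KO, against 27.4, 26.4, 26.2 and 26.5 CPM in WT. The values within each genotype lay close together and the genotypes did not overlap. Pecam1 fell by 1.15 ± 0.16 on the log2 scale (SE; edgeR adjusted p = 0.00039).

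Plvap, which encodes the protein that forms the diaphragms of fenestrated capillaries, had the largest fall of the 26 genes. It had 0, 0, 6 and 12 reads in Nell2-KO, against 22, 15, 23 and 14 reads in WT, which is 0, 0, 0.914 and 2.16 CPM against 8.62, 7.34, 11.2 and 6.38 CPM. The 0 counts were in the shallow Nell2-KO replicates 1 and 2, where 3 reads, the limit that a count of 0 allows, are 4.22 and 2.18 CPM, counting error only. Its log2 fold change was -2.71 ± 0.50 (SE; edgeR adjusted p = 0.0013), and -3.55 without Nell2-KO replicate 4. The genotypes did not overlap.

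Emcn, which encodes endomucin, a sialoglycoprotein of capillaries and veins, was at 18.3, 7.27, 7.62 and 7.73 CPM in Nell2-KO, against 23.1, 34.7, 24.3 and 17.3 CPM in WT. Nell2-KO replicate 1, with 13 reads, stood above the other Nell2-KO libraries and overlapped the lowest WT library. The log2 fold change was -1.52 ± 0.29 (SE; edgeR adjusted p = 0.0038), and -1.70 without that library. Eng, which encodes endoglin, a co-receptor for ligands of the TGF-beta family, was at 2.82, 7.27, 4.42 and 5.04 CPM in Nell2-KO, against 18.8, 11.7, 9.72 and 10.5 CPM in WT, without overlap. It fell by 1.37 ± 0.30 on the log2 scale (SE; edgeR adjusted p = 0.0070). Clec14a, a C-type lectin gene of endothelium, was at 5.63, 4.36, 2.28 and 1.798 CPM in Nell2-KO, against 6.66, 7.34, 6.32 and 10.03 CPM in WT. It rested on 35 reads in all Nell2-KO libraries and 67 in all WT libraries. Its log2 fold change was -1.53 ± 0.35 (SE; edgeR adjusted p = 0.0097), and its call ended without Nell2-KO replicate 3 (edgeR adjusted p = 0.066) or 4 (edgeR adjusted p = 0.055).

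Ptprb, which encodes the endothelial phosphatase VE-PTP, was at 22.5, 32.7, 18.1 and 16.5 CPM in Nell2-KO, against 39.6, 51.9, 37.4 and 31.01 CPM in WT. Nell2-KO replicate 2 overlapped WT replicate 4. Ptprb fell by 0.92 ± 0.24 on the log2 scale (SE; edgeR adjusted p = 0.022), and its call ended without any of Nell2-KO replicates 3 and 4 and WT replicates 1, 2 and 3 (edgeR adjusted p of up to 0.098). The values of all Nell2-KO libraries lay below those of all WT libraries in 7 of the 26 genes tested, each of them called lower, and in 12.6% of all genes tested. In GENCODE M21 on mm10, Cd34 lies on chromosome 1 at 194938819 to 194961279 (plus strand), Pecam1 on chromosome 11 at 106654217 to 106750628 (minus strand) and Plvap on chromosome 8 at 71497765 to 71511752 (minus strand). Plvap overlaps Gtpbp3, Eng overlaps Fpgs and Cd34 overlaps Gm16897, each on the opposite strand, and Ptprb overlaps small gene models on its own strand. In all, 15 of the 38 genes overlap another gene model. Among genes without a call, Egfl7 overlaps Agpat2 and Cdh5 overlaps Gm29682, each on the opposite strand. How the counting treated strand is unknown here, so reads of these pairs cannot be told apart.

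**Figure D2:**
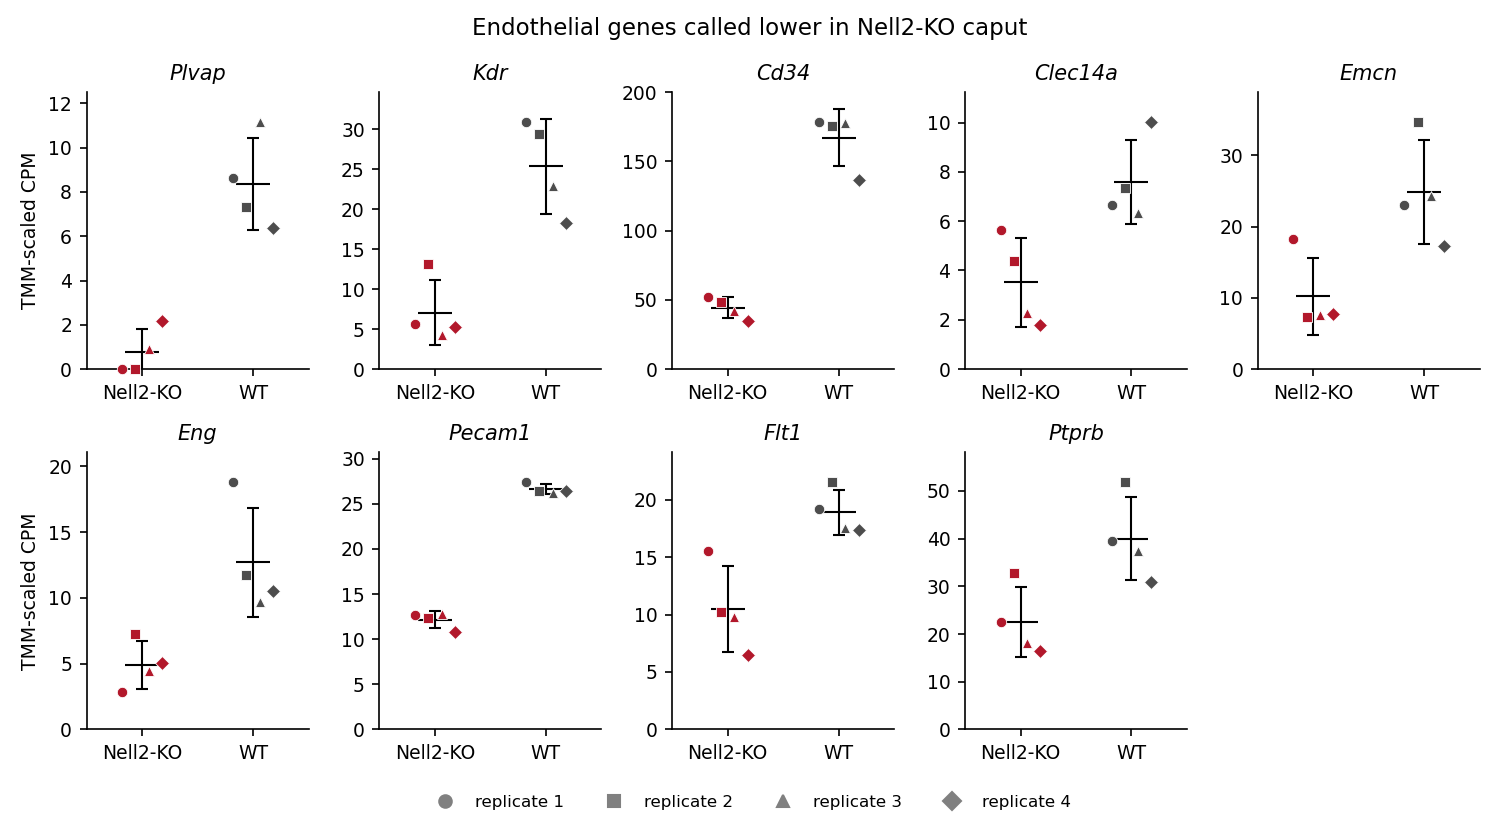
TMM-scaled CPM (y axis, from 0, with its own scale in each panel) of the 9 genes called lower, in the 4 Nell2-KO libraries (red, left) and the 4 WT libraries (grey, right), with the mean and SD in black and a symbol for each replicate number. Pecam1 shows the tightest groups, at 10.8 to 12.8 CPM in Nell2-KO and 26.2 to 27.4 CPM in WT, while the Nell2-KO values of Emcn reach into the WT range through replicate 1.

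The other 5 tested markers did not pass the test. Cdh5, which encodes VE-cadherin, the adhesion protein of endothelial junctions, was at 23.9, 16.7, 13.4 and 11.5 CPM in Nell2-KO, against 21.1, 20.6, 21.9 and 13.2 CPM in WT. The WT range lay within the Nell2-KO range. Its log2 fold change was -0.39 with a 95% interval of -0.93 to 0.14 (edgeR adjusted p = 0.35), which leaves out a change as large as that of Cd34. Egfl7, a secreted factor of endothelium, averaged 9.89 ± 2.71 CPM in Nell2-KO and 10.3 ± 4.13 CPM in WT (SD, n = 4 each), with a log2 interval of -0.65 to 0.73. Esam, a junctional adhesion molecule, averaged 5.06 ± 2.98 CPM in Nell2-KO and 8.81 ± 4.28 CPM in WT (SD, n = 4 each), and its interval of -1.35 to 0.33 was wide. Vwf, which encodes the clotting protein von Willebrand factor, had a log2 fold change of -0.49 (interval -1.15 to 0.17). Mmrn2, an extracellular matrix protein of endothelium, had -0.68 (interval -1.33 to -0.04; edgeR adjusted p = 0.16), and was called lower without Nell2-KO replicate 1 (log2 fold change -0.82, edgeR adjusted p = 0.047). Mmrn2 is among 4 genes without a call whose unadjusted interval lies below 0, with Tie1, Aplnr and Figf.

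The receptors for VEGF ligands were led by Kdr, which encodes VEGFR2, the main signalling receptor of endothelium. Kdr was at 5.63, 13.1, 4.26 and 5.21 CPM in Nell2-KO, against 30.9, 29.4, 22.8 and 18.2 CPM in WT. The genotypes did not overlap, and Nell2-KO replicate 2 was the highest of its group. Kdr fell by 2.06 ± 0.32 on the log2 scale (SE; edgeR adjusted p = 0.00093), a 4.18-fold lower level, and its call held without each of the 8 libraries in turn. Flt1, which encodes VEGFR1, a receptor that binds VEGF-A tightly and also binds placental growth factor, was at 15.5, 10.2, 9.75 and 6.47 CPM in Nell2-KO. In WT it was at 19.2, 21.5, 17.5 and 17.3 CPM, above every Nell2-KO library. Flt1 fell by 1.03 ± 0.24 on the log2 scale (SE; edgeR adjusted p = 0.012). With limma on log2(RPKM + 1), the calls of Flt1 (adjusted p = 0.082), Eng (adjusted p = 0.13) and Ptprb (adjusted p = 0.23) ended. With every library thinned to the smallest total, those of Emcn (edgeR adjusted p = 0.057), Flt1 (edgeR adjusted p = 0.13) and Ptprb (edgeR adjusted p = 0.054) ended, and Plvap, Eng and Clec14a had too few reads to test. Kdr lies on chromosome 5 at 75932827 to 75978458 and Flt1 on chromosome 5 at 147561604 to 147726011 of mm10, both on the minus strand.

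The angiopoietin receptor gene Tek was at 5.63, 5.82, 8.38 and 5.75 CPM in Nell2-KO, against 9.79, 8.32, 9.72 and 10.5 CPM in WT, with a log2 fold change of -0.50 (interval -0.999 to 0.001; edgeR adjusted p = 0.18). Tie1, its orphan relative, was at 1.41, 6.55, 2.74 and 2.16 CPM in Nell2-KO, against 7.83, 5.87, 5.35 and 4.56 CPM in WT, and its log2 fold change of -1.02 did not pass (edgeR adjusted p = 0.092). Without Nell2-KO replicate 2, Tie1 was called lower (log2 fold change -1.297, edgeR adjusted p = 0.024). Both Tek and Tie1 had a Nell2-KO library within the WT range. The neuropilin genes, whose products bind VEGF and semaphorins on endothelium, neurons and other cells, did not pass either. Nrp1 averaged 45.4 ± 13.03 CPM in Nell2-KO and 55.5 ± 4.66 CPM in WT (SD, n = 4 each), and its highest value, 63.4 CPM, was in Nell2-KO replicate 1. Without that library and WT replicate 2, Nrp1 was called lower (log2 fold change -0.57, edgeR adjusted p = 0.0015). Nrp2 averaged 11.7 ± 2.40 CPM in Nell2-KO and 10.4 ± 1.39 CPM in WT (SD, n = 4 each), with a log2 interval of -0.40 to 0.57. Flt4, which encodes VEGFR3 of lymphatic endothelium, had too few reads to test, 27 in all Nell2-KO libraries and 23 in all WT libraries. Scaled for depth, these pooled reads are 1.90 CPM in Nell2-KO and 2.60 CPM in WT.

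Genes of vasoactive and lipid signalling held no call among the 3 tested, by edgeR or DESeq2, with 1 at an unadjusted p under 0.05. That gene was Aplnr, which encodes the apelin receptor, at 4.22, 5.09, 2.13 and 2.52 CPM in Nell2-KO, against 7.05, 3.43, 7.29 and 6.84 CPM in WT. WT replicate 2 fell within the Nell2-KO range. The log2 fold change was -1.13 ± 0.36 (SE; edgeR adjusted p = 0.052), and the gene was called lower without WT replicate 2 (edgeR adjusted p = 0.029), without Nell2-KO replicate 1 (edgeR adjusted p = 0.023) or 2 (edgeR adjusted p = 0.036). Calcrl, which encodes the receptor that pairs with the Ramp2 product to bind adrenomedullin, averaged 30.3 ± 7.63 CPM in Nell2-KO and 28.3 ± 1.72 CPM in WT (SD, n = 4 each). Its log2 interval of -0.41 to 0.42 leaves out changes as large as those of Pecam1 or Kdr. S1pr1, a receptor for sphingosine 1-phosphate, averaged 7.35 ± 4.87 CPM in Nell2-KO and 8.15 ± 2.83 CPM in WT (SD, n = 4 each). Its log2 fold change was -0.58 with a wide interval of -1.48 to 0.32, which includes a fall as large as that of Pecam1. The highest value, 14.1 CPM from 10 reads, was in Nell2-KO replicate 1. Without that library the log2 fold change was -0.83, without a call (edgeR adjusted p = 0.095).

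Transcription factors of endothelium were near the limit of detection. Sox17, the only one of 4 with enough reads to test, was at 9.86, 2.18, 4.87 and 3.42 CPM in Nell2-KO, against 5.48, 1.96, 2.92 and 5.47 CPM in WT, and its interval of -0.81 to 1.02 was wide. The 12 genes under the expression filter were Icam2, Ecscr, Robo4, Flt4, Sox18, Erg, Fli1, Nos3, Ramp2, Vegfc, Angpt1 and Angpt2. They had 7 to 46 reads over all Nell2-KO libraries and 11 to 49 over all WT libraries. Over all libraries of a genotype, 3 reads are 0.211 CPM in Nell2-KO and 0.339 CPM in WT, so read totals do not compare directly. Sox18, a factor of vascular and lymphatic development, had 0, 1, 3 and 3 reads in Nell2-KO, against 7, 2, 10 and 7 reads in WT. Its levels were 0 to 0.727 CPM in Nell2-KO and 0.979 to 4.86 CPM in WT, without overlap. Without the filter its edgeR log2 fold change was -2.48 (adjusted p = 0.011), and it was the 1 gene of the 12 then called. The ETS factors Erg and Fli1 had 19 and 35 reads over all Nell2-KO libraries, against 26 and 49 over all WT libraries. Scaled for depth, these pooled reads are 1.34 and 2.46 CPM in Nell2-KO, against 2.94 and 5.54 CPM in WT. The single libraries of the genotypes overlapped in both genes. In Fli1, 26 of the 49 WT reads were in WT replicate 2. Nos3, which encodes endothelial nitric oxide synthase, had 0, 0, 6 and 2 reads in Nell2-KO, against 9, 2, 2 and 3 reads in WT. This is 0, 0, 0.914 and 0.360 CPM in Nell2-KO, against 3.52, 0.979, 0.972 and 1.37 CPM in WT. The 0 counts were in the shallow Nell2-KO replicates 1 and 2, where 3 reads are 4.22 and 2.18 CPM.

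Ligands showed another pattern. Vegfa, the main ligand of Kdr and the most abundant ligand gene per length in WT (14.6 ± 1.01 RPKM by the authors' values, SD, n = 4), was at 99.98, 86.5, 89.3 and 59.3 CPM in Nell2-KO, against 103, 113, 92.8 and 88.0 CPM in WT. The ranges overlapped, and the lowest value was in Nell2-KO replicate 4. Its log2 fold change was -0.26 with an interval of -0.64 to 0.11 (edgeR adjusted p = 0.37), and a fall as large as that of Kdr lies outside this interval. Pgf, which encodes placental growth factor, a ligand of VEGFR1 that does not bind VEGFR2, was at 23.9, 28.4, 38.2 and 57.7 CPM in Nell2-KO, against 18.02, 10.8, 19.9 and 22.8 CPM in WT. The lowest Nell2-KO library stood just above the highest WT library, and the Nell2-KO values spread widely. Separation upwards was seen in 1 of the 26 genes tested, Pgf, and in 9.50% of all genes tested. Pgf rose by 1.14 ± 0.29 on the log2 scale (SE; edgeR adjusted p = 0.017), a 2.21-fold higher level. The call ended without Nell2-KO replicate 4 (edgeR adjusted p = 0.063), WT replicate 1 (edgeR adjusted p = 0.060) or WT replicate 2 (edgeR adjusted p = 0.051), and with limma on log2(RPKM + 1) (log2 fold change 0.73, adjusted p = 0.58). Pgf lies on chromosome 12 at 85166635 to 85177790 of mm10 (minus strand), with no overlapping gene in the annotation.

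The remaining ligands had few reads. Vegfb, a ligand of VEGFR1, averaged 6.71 ± 2.38 CPM in Nell2-KO and 5.61 ± 2.48 CPM in WT (SD, n = 4 each), with an interval of -0.74 to 0.79. Figf, now named Vegfd, was at 4.22, 10.2, 7.01 and 5.57 CPM in Nell2-KO, against 11.4, 8.32, 10.2 and 10.03 CPM in WT, with a log2 fold change of -0.57 (edgeR adjusted p = 0.17). Vegfc, like Vegfd a ligand of VEGFR3, had 0, 0, 8 and 4 reads in Nell2-KO, against 10, 4, 6 and 5 reads in WT. The 0 counts were in the shallow Nell2-KO replicates 1 and 2, where 3 reads are 4.22 and 2.18 CPM, against 1.96 to 3.92 CPM in WT, so a difference was not detectable in those libraries at this depth. In the deeper Nell2-KO replicates 3 and 4, Vegfc was at 1.22 and 0.719 CPM, below every WT library. Without the expression filter the log2 fold change was -1.75 (edgeR adjusted p = 0.060). The angiopoietin genes had 37 reads (Angpt1) and 14 reads (Angpt2) over all Nell2-KO libraries, against 18 and 11 over all WT libraries. Scaled for depth, these pooled reads are 2.60 and 0.985 CPM in Nell2-KO, against 2.03 and 1.24 CPM in WT.

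**Figure D3:**
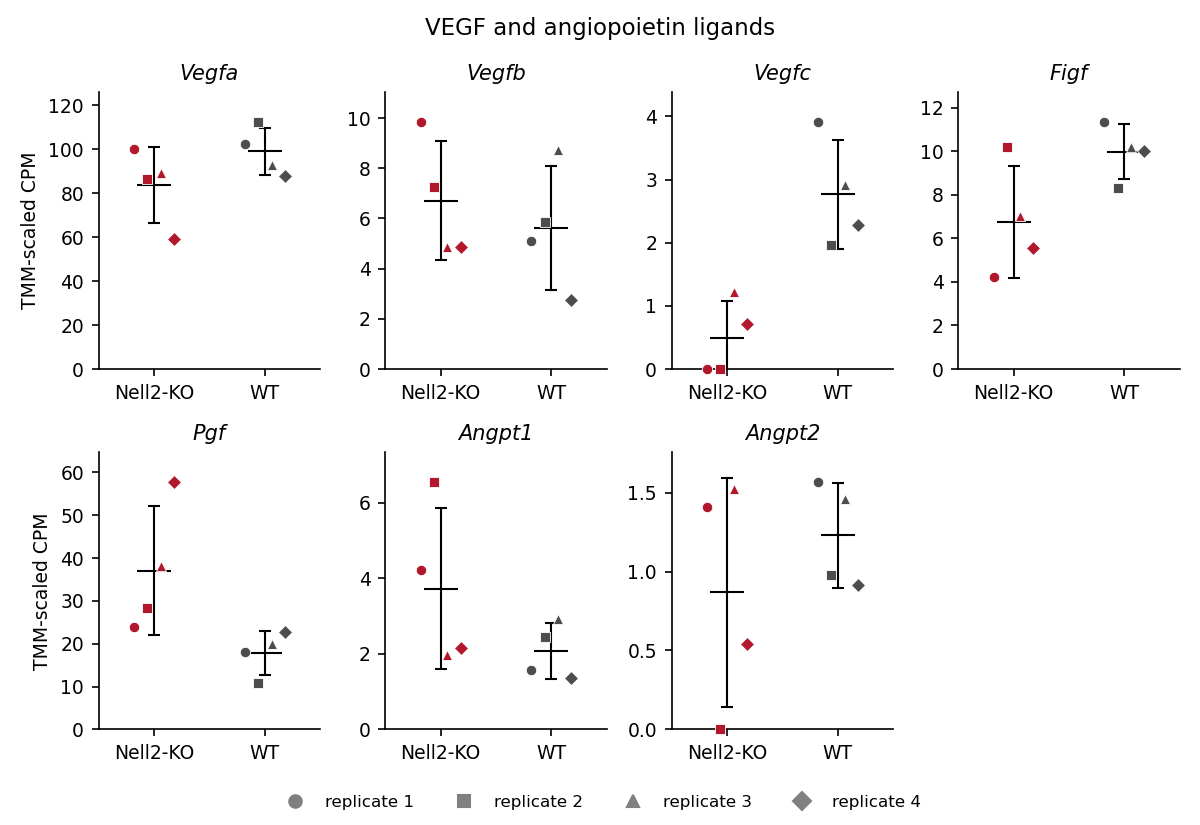
TMM-scaled CPM (y axis, from 0, with its own scale in each panel) of the 7 VEGF and angiopoietin ligand genes in the 4 Nell2-KO libraries (red, left) and the 4 WT libraries (grey, right), with the mean and SD in black and a symbol for each replicate number. Pgf lies at 23.9 to 57.7 CPM in Nell2-KO and 10.8 to 22.8 CPM in WT, while the values of Vegfa overlap.

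The summed level of the 31 genes other than ligands was 344, 314, 255 and 227 CPM in Nell2-KO, against 576, 573, 537 and 465 CPM in WT, without overlap. Cd34 made up 15.6% of the mean sum in Nell2-KO and 31.1% in WT. Without Cd34 the sum of the other 30 was 192 to 292 CPM in Nell2-KO, against 329 to 398 CPM in WT. The 7 ligand genes summed to 131 to 144 CPM in Nell2-KO and 128 to 144 CPM in WT, mostly from Vegfa. Within this sum the mean of Pgf was higher in Nell2-KO (37.1 CPM, against 17.9 CPM in WT). That of Vegfa was lower without a call (83.8 CPM, against 99.0 CPM in WT). The like sums therefore do not show that each ligand gene kept its level.

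Libraries and other cell types were examined beside these values. Nell2-KO replicate 1 had the lowest total, and relative to WT on average only 0.496 times as many of its reads fell in genes (1.02 to 1.03 times for Nell2-KO replicates 2 to 4), as estimated from the ratio of counts to the authors' RPKM. Malat1, a nuclear RNA, was at 931 to 1876 CPM in Nell2-KO libraries, against 7158 CPM in WT replicate 2 and 985 to 1129 CPM in WT replicates 1, 3 and 4. Without both libraries all 9 genes remained called lower and Pgf higher, and Aplnr and Nrp1 were also called lower. Epithelial markers summed to 1088.5 to 1161.6 CPM in Nell2-KO and 1109.8 to 1187.6 CPM in WT, with Krt19 called higher and Cldn4 lower among 6 tested. Macrophage and dendritic markers summed to 76.0 to 109.7 CPM in Nell2-KO and 105 to 126 CPM in WT, with 0 of 6 tested macrophage genes called by edgeR (1 at an unadjusted p under 0.05). All 6 of these macrophage genes had a negative log2 fold change, with a median of -0.34. Fibroblast markers summed to 665 to 1007 CPM in Nell2-KO, against 1011 to 1079 CPM in WT, with Dcn called higher and Pdgfra, a receptor gene of fibroblasts, called lower, at 121 ± 23.8 CPM in Nell2-KO and 517 ± 42.5 CPM in WT (SD, n = 4 each). Without Pdgfra the other 5 fibroblast markers summed to 559.8 to 887.1 CPM in Nell2-KO, against 491.3 to 593.7 CPM in WT, and 4 of the 6 had a positive log2 fold change (median 0.24). The call of Dcn (edgeR adjusted p = 0.042) ended without Nell2-KO replicate 1 and WT replicate 2. Smooth muscle markers summed to 659 to 858 CPM in Nell2-KO, against 1538 to 1822 CPM in WT, and of the 8 only the enteric actin gene Actg2 was called, at 24.4 ± 5.63 CPM in Nell2-KO and 1019 ± 133 CPM in WT (SD, n = 4 each). The other 7 smooth muscle markers summed to 642.1 to 827.6 CPM in Nell2-KO, against 608.9 to 718.3 CPM in WT. The part of other cell types in the falls of endothelial genes was not tested.

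**Figure D4:**
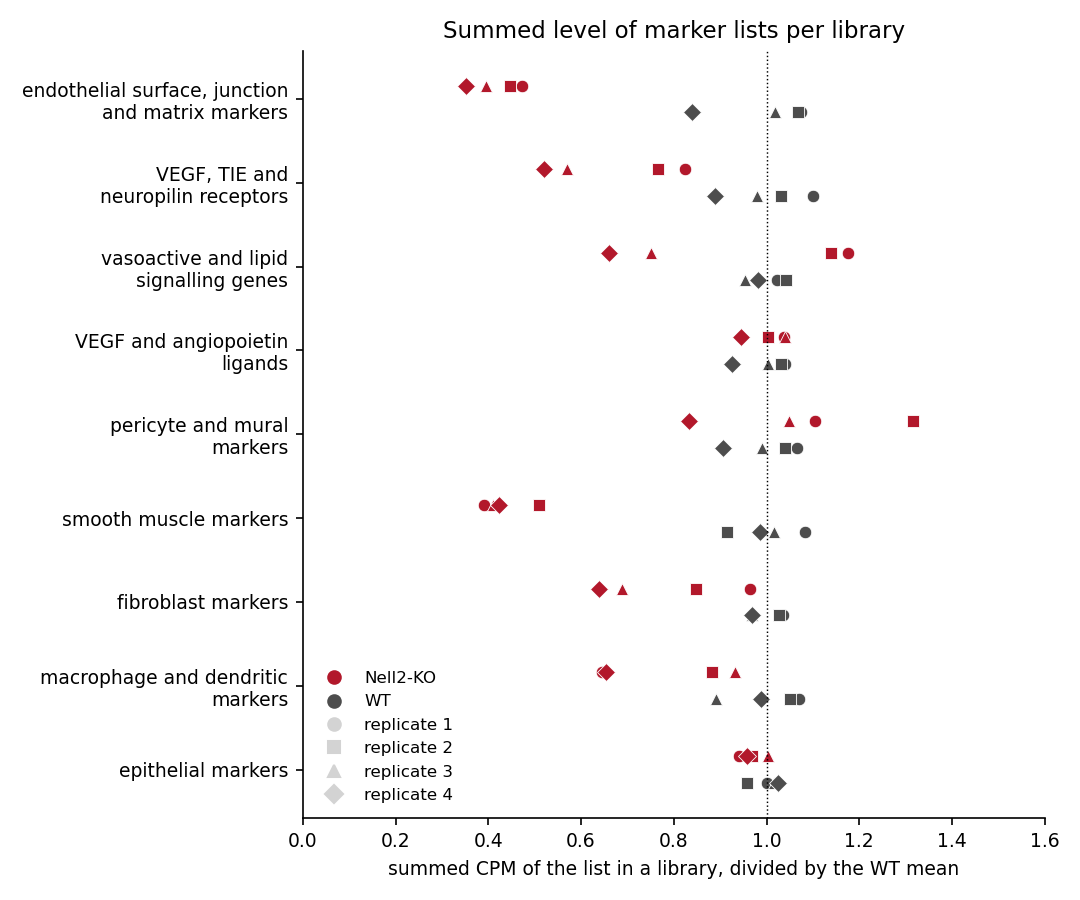
Summed CPM of each marker list in a library, divided by the WT mean of that list (x axis, from 0), for the lists on the y axis, with Nell2-KO in red above WT in grey and a symbol for each replicate number. Endothelial surface markers and receptors lie below every WT library in Nell2-KO, the ligands overlap, and the low smooth muscle and fibroblast sums rest on Actg2 and Pdgfra, without which the genotypes overlap.

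Cells around vessels gave a mixed picture. Of 5 pericyte and mural genes tested, Rgs5, a regulator of G protein signalling in pericytes, fell and Notch3 rose. Rgs5 was at 16.9, 18.9, 14.3 and 10.1 CPM in Nell2-KO, against 30.2, 38.7, 31.6 and 22.8 CPM in WT, without overlap (log2 fold change -1.13 ± 0.23, SE; edgeR adjusted p = 0.0056). Pdgfrb, the defining receptor of pericytes, averaged 10.8 ± 2.32 CPM in Nell2-KO and 12.2 ± 0.889 CPM in WT (SD, n = 4 each; edgeR adjusted p = 0.52). The median log2 fold change of the 5 genes was -0.15. Notch3 had 8.45 CPM in Nell2-KO replicate 1 and 21.9 to 31.3 CPM in Nell2-KO replicates 2 to 4, against 10.3 to 13.3 CPM in WT (edgeR adjusted p = 0.034).

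Among 9 tested genes of Notch, apelin and adrenomedullin signalling in vessels, 2 fell and 0 rose by edgeR, with a median log2 fold change of 0.07. Esm1, which encodes endocan, a proteoglycan of endothelial tip cells, had 1, 0, 10 and 6 reads in Nell2-KO, against 42, 42, 19 and 17 reads in WT. This is 1.41, 0, 1.52 and 1.08 CPM in Nell2-KO and 16.4, 20.6, 9.23 and 7.75 CPM in WT. Its log2 fold change was -3.48 ± 0.53 (SE; edgeR adjusted p = 0.00025). Hey2, a Notch target gene, averaged 4.94 ± 2.37 CPM in Nell2-KO and 14.9 ± 1.95 CPM in WT (SD, n = 4 each; edgeR adjusted p = 0.00043). Notch1, the receptor gene, averaged 68.6 ± 19.1 CPM in Nell2-KO and 65.2 ± 6.65 CPM in WT (SD, n = 4 each; edgeR adjusted p = 0.74).

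Of 16 tested genes of the hypoxia pathway and other VEGF regulators, 1 fell and 0 rose by edgeR, with a median of 0.19. An unadjusted p under 0.05 was reached by 6 of them, and by 2964 of all 11062 genes tested. Egln3, which encodes a prolyl hydroxylase that marks hypoxia-inducible factors for breakdown, was at 1.41, 2.18, 1.37 and 3.42 CPM in Nell2-KO, against 28.2, 30.3, 33.0 and 24.6 CPM in WT. It fell by 3.66 ± 0.31 on the log2 scale (SE; edgeR adjusted p = 2.5e-06). Hif1a, the factor itself, averaged 294 ± 92.9 CPM in Nell2-KO and 237 ± 29.5 CPM in WT (SD, n = 4 each; edgeR adjusted p = 0.38). Without Nell2-KO replicate 1 and WT replicate 2, 4 genes of this list were called higher and 3 lower. Over the whole table that fit called 1391 genes higher and 1694 lower, of 11359 tested. Of 12 arterial, venous and capillary markers in the table, 5 were tested and 0 called by edgeR (1 at an unadjusted p under 0.05). That gene was Efnb2, which encodes the arterial ligand ephrin-B2. Efnb2 was called higher without Nell2-KO replicate 1 and WT replicate 2 (log2 fold change 0.51, edgeR adjusted p = 0.00096). The 5 tested genes of this list had a median log2 fold change of 0.51, and 4 of them were positive. The list summed to 151 to 297 CPM in Nell2-KO and 142 to 188 CPM in WT. Among lymphatic markers only Pdpn, which epithelial and stromal cells also express, could be tested, and it fell by 1.71 ± 0.15 on the log2 scale (SE; edgeR adjusted p = 7.0e-06). Prox1, the defining factor of lymphatic endothelium, had a mean of 0 CPM in Nell2-KO and 0.122 CPM in WT.

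**Figure D5:**
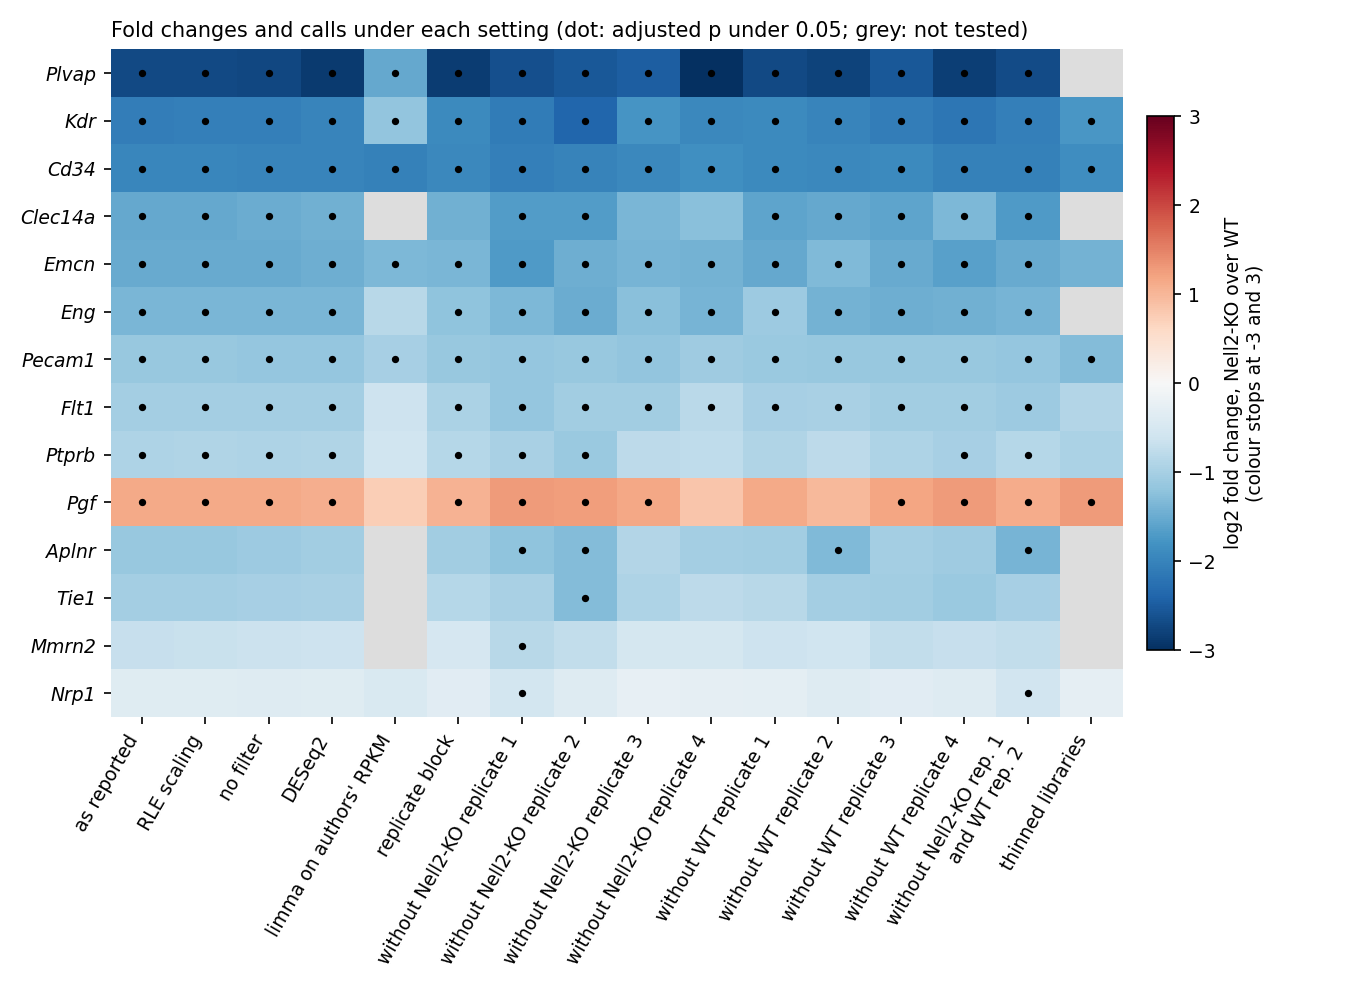
Log2 fold changes (colour, Nell2-KO over WT) and calls (dots, adjusted p under 0.05) of 14 genes, in rows, under the reported test and 15 alternatives, in columns, with grey where a gene was not tested. Cd34, Pecam1 and Kdr are called in every column, Plvap in every column where it was tested, and Ptprb and Pgf lose their calls in several columns.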

How the data were processed

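RNA of whole caput was amplified and sequenced as stranded mRNA libraries on an Illumina GAIIx, per the labels' protocols. The table holds unnormalised read counts for each gene and sample, which the authors deposited. It also holds the authors' RPKM values, used for levels per gene length and in an alternative test. Tools named in the submitters' processing notes are Bowtie2 2.2.0, FastQC 0.11.2 and CASAVA 1.8.2, and the build is mm10. No source used here states the counting tool, the annotation or the strand setting.

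The counts of 24059 symbols went into edgeR 4.0.16 (R 4.3.3, TMM scaling, the default expression filter, robust quasi-likelihood F test of genotype, no covariates), after a check on simulated data, with Benjamini-Hochberg adjustment over 11062 genes. Standard errors are Wald errors of this fit, not below those of Poisson counting, and 95% intervals use its t distribution and are not adjusted over genes. Alternatives used DESeq2 1.42.0, limma 3.58.1 on log2(RPKM + 1) for genes with a mean RPKM of at least 1, RLE scaling, no filter, a replicate block, libraries left out and libraries thinned to the smallest total. WT replicates 3 and 4 differed by a chi-square per degree of freedom of 1.29, above sampling noise, and were kept apart.

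Members, gene lists and tests were chosen with earlier results of these data known. All 38 members are named, and from each other list up to 4 called genes with the lowest adjusted p. Pdgfrb, Notch1, Hif1a, Efnb2 and Prox1, and the list genes named among the flagged and other observations, were chosen after their values were seen. Library totals of 801112 to 6256204 counts make 3 reads worth 0.457 to 4.22 CPM in a library. The RNA was amplified and no molecular identifiers were read, so floors cover counting error only.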

Additional observations from a re-analysis of the deposited data

Results flagged for a closer look

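In 9 of 98 groups of 4 libraries examined (the 38 genes and 11 called genes of the other lists, in each genotype), the value of a library lay far from the other 3 by Dixon's criterion, which chance meets in about 1 in 20 groups. Nell2-KO replicate 1 was the outlying library for Emcn (18.3 CPM, against 7.27 to 7.73 CPM in the other 3), Hey2 (8.45 CPM, against 3.42 to 4.26 CPM) and Cldn4 (9.86 CPM, against 44.4 to 50.7 CPM). Kdr was at 13.1 CPM in Nell2-KO replicate 2, against 4.26 to 5.63 CPM, and Tek at 8.38 CPM in Nell2-KO replicate 3, against 5.63 to 5.82 CPM. Among WT libraries, replicate 4 was low for Cd34 (136 CPM, against 176 to 179 CPM) and Cdh5 (13.2 CPM, against 20.6 to 21.9 CPM). Aplnr was low in WT replicate 2 (3.43 CPM, against 6.84 to 7.29 CPM), and Nos3, with 9 reads, was high in WT replicate 1 (3.52 CPM, against 0.972 to 1.37 CPM).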

How the results depend on the processing

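Leaving out each library in turn gave 443 to 1249 genes called higher and 748 to 1541 called lower over the whole table, and 0 to 1 of the 38 genes higher and 7 to 12 lower. The reported numbers over the table are 690 higher and 964 lower; both highest values came without Nell2-KO replicate 1, and the number higher fell to 443 without WT replicate 1 and 456 without WT replicate 3. Without Nell2-KO replicate 1 and WT replicate 2 together, 1391 genes were called higher and 1694 lower. Limma on log2(RPKM + 1) called 58 genes higher and 472 lower, and among the 38 genes 0 higher (0 at an unadjusted p under 0.05) and 5 lower (Cd34, Pecam1, Emcn, Plvap and Kdr). In that fit the median of all genes was -0.16, against 0.03, and the added 1 shrinks low genes, with -1.53 for Plvap and -1.17 for Kdr. Thinning every library to the smallest total left 11 of the 38 genes tested and called 3 of them lower (Cd34, Pecam1 and Kdr), with 399 genes higher and 627 lower over the table. RLE scaling, no filter and DESeq2 kept all 9 lower calls and that of Pgf, and no filter and DESeq2 each added Sox18. With the replicate number as a block, 436 genes were called higher and 748 lower and the call of Clec14a ended (edgeR adjusted p = 0.057). Same-numbered libraries correlated by -0.28 to 0.17 in their deviations from the group means. None of the Nell2-KO libraries correlated best with its own number. The highest correlation, 0.41, joined Nell2-KO replicate 1 and WT replicate 2, which stood out above by reads in genes and by Malat1. Such a check cannot decide whether the numbers pair the samples. The sign changed only for genes without a call. Egfl7 was -7e-04 with DESeq2, -0.15 with limma, -0.15 without Nell2-KO replicate 1 and WT replicate 2 and -0.19 to 0.24 with a library left out. Sox17 was -0.26 without that pair and -0.10 to 0.33 with a library left out. Calcrl was -0.0049 without the filter, -0.11 with limma, -0.09 without that pair and -0.11 to 0.13 with a library left out. Vegfb was -0.07 without that pair and -0.18 to 0.33 with a library left out, and Nrp2 -0.0156 to 0.23 with a library left out. The cause of these changes was not tested. Depth limits the 12 untested genes and every value of Nell2-KO replicate 1, where 1 read is 1.41 CPM.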

Other observations

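Some vessel genes outside the 38 had too few reads to test and are given as values, chosen after these were seen. Rgcc, a cell cycle regulator known from capillary endothelium, had 0, 1, 2 and 1 reads in Nell2-KO replicates 1 to 4, against 9, 8, 6 and 8 reads in WT replicates 1 to 4. Gpihbp1, which encodes the protein that carries lipoprotein lipase on capillaries, had 0, 1, 2 and 0 reads in Nell2-KO, against 4, 6, 1 and 2 reads in WT. Cldn5, a tight junction gene of endothelium, averaged 2.25 ± 2.12 CPM in Nell2-KO and 2.36 ± 0.706 CPM in WT (SD, n = 4 each). Gja4 went the other way, at 4.05 ± 3.01 CPM in Nell2-KO and 2.78 ± 0.885 CPM in WT (SD, n = 4 each). Gja5 averaged 0.742 ± 0.622 CPM in Nell2-KO and 2.82 ± 1.71 CPM in WT (SD, n = 4 each). All these genes belong to the arterial, venous and capillary list, where 4 of the 5 tested genes had a positive log2 fold change.

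Within the hypoxia list, the genes called without Nell2-KO replicate 1 and WT replicate 2 were Bnip3, a mitophagy receptor gene (log2 fold change 0.75), the prolyl hydroxylase gene Egln2 (0.65), Hif3a (1.09) and Sema3f (1.303) among higher genes, and Egln3 (-3.61), Epas1 (-0.43) and Vhl (-0.35) among lower genes. With all 8 libraries, Bnip3 (edgeR adjusted p = 0.051), Egln2 (edgeR adjusted p = 0.13), Sema3f (edgeR adjusted p = 0.087), Epas1 (edgeR adjusted p = 0.16) and Vhl (edgeR adjusted p = 0.27) did not pass, and Hif3a was not tested. Without the same 2 libraries, Angptl2 of the Notch and apelin list (log2 fold change 0.69; edgeR adjusted p = 0.070 with all 8) and the smooth muscle gene Cnn1 (0.41; edgeR adjusted p = 0.26 with all 8) were also called higher, and the epithelial cadherin gene Cdh1 (-0.28; edgeR adjusted p = 0.22 with all 8) lower.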
